A study of Sorghum bicolor with 14 samples.

Results

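In stems of CSV24SS, a sweet variety of sorghum (Sorghum bicolor) sampled at the middle internode, 97 of 32752 named rows of the deposited development table had their peak at the milky stage. A row was a member when its log2(FPKM + 1) at the milky stage lay at least 1 above the highest of the other 3 stages, which is 2-fold for abundant transcripts. FPKM is the number of sequenced fragments scaled to gene length and library size. Members were 0.529% of the 18338 named genes that reached 1 FPKM in at least 1 stage. These stage values chose the members, so they are described here and not tested.

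RNA came from plants of 1 variety in 7 groups of 2 samples. Of these, 4 groups grew in a fertilised and regularly watered soil bed and were taken at floral initiation (FI), booting (B), the milky stage (MS) and soft dough (SD). The other 3 grew in pots with 1 plant each, lost their water supply at the flag leaf stage, and were taken at booting at soil moistures of about 13% (D1), 7% (D2) and 2% (D3). Within the pots, soil moisture and the time since watering ended cannot be told apart. No watered pots are among the groups, so drying and growth in a pot cannot be told apart either. The deposited sheet gives 1 FPKM value per gene and group, so the error between replicates is unknown for every difference, and no test was run. Read counts are not given and the depth behind each value is unknown.

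Booting is the time when the panicle swells inside the flag leaf sheath. At the milky stage the young grain fills with a sugary liquid that turns into starch, and at soft dough the starchy grain starts to harden. In sweet sorghum the stem stores sucrose over this period, so the internode lies between the leaves that export sugar and the grain that draws on it. The tables pair the identifiers with no gene products. One member, a sucrose synthase, carries a name from published work on its locus, and the others are given by identifier alone. In a bulk internode, fewer cells of a type and less RNA per cell cannot be told apart.

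The members ranged from 1.29 to 1133 FPKM at MS. Their median level was 3.76, 5.47, 33.1 and 9.71 FPKM in FI, B, MS and SD. At MS, 86 members reached 5 FPKM, 23 reached 100 and 8 reached 500. The peak was modest for most of them. The margin over the next highest stage had a median of 1.35 on the log2(FPKM + 1) scale, lay below 1.5 for 63 members and from 1.5 up to 2 for 19, and was at least 2 for 15. The plot of the milky-stage level against the next highest stage shows how few rows stand above the line of the rule.

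**Figure D1:**
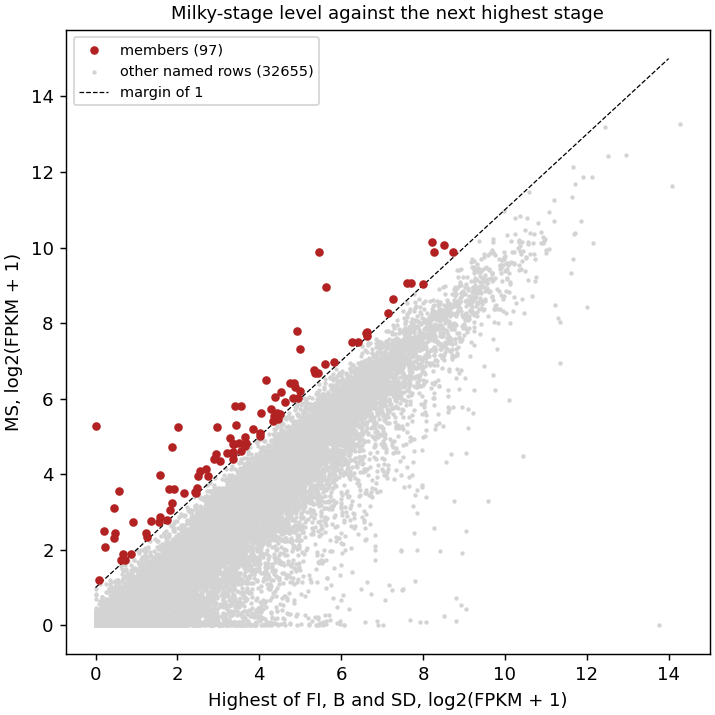
Each point is a named row of the development table, with the highest of FI, B and SD on the x axis and MS on the y axis, both as log2(FPKM + 1). The 97 members, in red, lie on or above the dashed line that marks a margin of 1.

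The next highest stage was soft dough for 61 members (62.9%), booting for 27 and floral initiation for 8, and 1 member was listed at 0 in all other stages. Among the 1243 measured genes that were highest at MS with a range of at least 1 on the log2 scale, it was soft dough for 636 (51.2%). Soft dough lay at least 2-fold above booting on that scale for 26 members and at least 2-fold below it for 2, and the other 69 lay within 2-fold. Between booting and floral initiation, 19 members were at least 2-fold higher in B and 9 were at least 2-fold lower. The 13 members under 1 FPKM in FI, B and SD lie within 2-fold on this scale by construction.

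**Figure D2:**
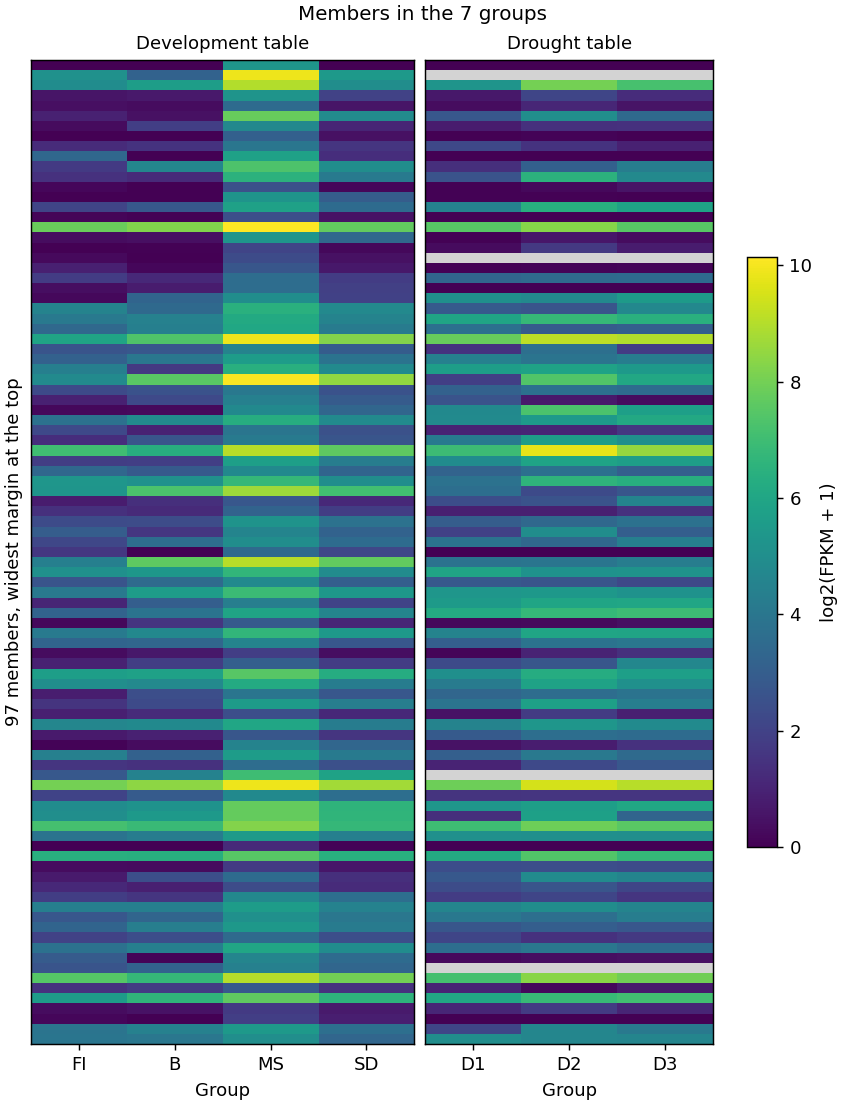
Colour gives log2(FPKM + 1) for the 97 members, one per line with the widest margin at the top, in the 4 stages (left) and the 3 soil moisture readings (right); grey marks the 4 members with no row of their own in the drought table. The MS column is the brightest of the stages in every line by construction, and D2 is brighter than D1 for 64 of the 79 members measured in drought.

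The most abundant member was Sobic.004G116300 (chromosome 4, 12145193 to 12167159), at 225, 297, 1133 and 208 FPKM in FI, B, MS and SD. Its other 3 stages were close together, and MS alone stood apart. Its locus is shared with another row, so the split of reads between them is uncertain. Sobic.003G039400 (chromosome 3, 3695195 to 3696666) was at 28.2, 184, 1077 and 366 FPKM in FI, B, MS and SD. Its lowest stage was FI, and SD stood above B. Sobic.003G356000 (chromosome 3, 67427643 to 67434548) had a similar course, at 59.4, 164, 950.1 and 305 FPKM in FI, B, MS and SD. Sobic.010G265600 (chromosome 10, 60090577 to 60121598), whose locus is also shared with another row, was at 260.2, 344, 937 and 425 FPKM. It was abundant in all 4 stages, and MS was 2.204-fold above SD.

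A further 4 of the 10 highest members lay between 400.6 and 530.25 FPKM at MS and reached at least 131.5 FPKM in each of 2 other stages. Sobic.005G003200 (chromosome 5, 248804 to 253735) was at 132, 81.3, 530.25 and 195 FPKM in FI, B, MS and SD. Sobic.002G267800 (chromosome 2, 65203930 to 65205818) was at 175, 109, 524 and 253 FPKM. Both had their lowest value at booting. Sobic.004G280200 (chromosome 4, 62255057 to 62258612) was at 38.1, 152, 401 and 133 FPKM, with nearly equal levels before and after the peak. Sobic.009G166900 (chromosome 9, 52324503 to 52324680) was at 19.7, 196, 528 and 209 FPKM. Its locus spans 178 bases, the 1 member locus under 500 bases.

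Members of very different levels had wide margins. Sobic.003G081900 (chromosome 3, 7023282 to 7024065) was at 34.1, 8.01, 936 and 42.7 FPKM in FI, B, MS and SD. MS was 21.9-fold above SD and 117-fold above B, the second widest margin of all members. Sobic.009G161700 (chromosome 9, 51873474 to 51882333, a locus shared with another row) was at 30.0, 48.9, 499.8 and 30.6 FPKM in FI, B, MS and SD, and MS was 10.2-fold above B. Both genes were also among the 10 members highest at MS. Sobic.001G418600 (chromosome 1, 69932393 to 69935701) was at 0.906, 0.383, 219.6 and 29.1 FPKM. Its SD level was far below MS and far above FI and B.

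Sobic.001G412700 (chromosome 1, 69506269 to 69508628) lay 426124 bases before Sobic.001G418600, start to start, and was at 2.26, 24.3, 159 and 30.7 FPKM in FI, B, MS and SD. Sobic.004G314400 (chromosome 4, 65105766 to 65108439) was at 1.74, 1.31, 89.7 and 16.9 FPKM. Sobic.001G438000 (chromosome 1, 71623554 to 71624809) was at 0.473, 0.616, 36.8 and 3.04 FPKM. The last 2 of these shared the pattern of low early stages, a peak and a remainder at soft dough.

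In 13 members all stages but MS stayed under 1 FPKM, and 4 of these reached 5 FPKM at MS. The widest margin of all, 5.28, belonged to Sobic.004G087050 (chromosome 4, 7313252 to 7315610), at 37.8 FPKM in MS and listed at 0 in FI, B and SD. It was listed at 0 in the drought columns as well, and its locus is shared with another row. Sobic.003G341900 (chromosome 3, 66431057 to 66437466), also on a shared locus, was at 0.338, 0.280, 10.7 and 0.493 FPKM in FI, B, MS and SD. Sobic.006G093500 (chromosome 6, 46339259 to 46343909) was at 0.00970, 0.00268, 7.66 and 0.363 FPKM. At the other end, 28 members exceeded 10 FPKM in each of FI, B and SD.

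The remaining genes with the 12 widest margins had lower or less regular profiles. Sobic.008G172800 (chromosome 8, 60639920 to 60643505) was at 0.219, 2.66, 25.4 and 1.07 FPKM in FI, B, MS and SD. Sobic.004G095500 (chromosome 4, 8299849 to 8307025, shared locus) was at 1.35, 1.803, 14.9 and 1.99 FPKM. Sobic.001G334501 (chromosome 1, 62342118 to 62343997) was at 9.54 FPKM in FI, listed at 0 in B, and at 55.0 in MS and 1.54 in SD. It was the 1 gene among these 12 with its next highest value at floral initiation.

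Near the limit of the rule the choice turned on small differences. Just inside were Sobic.005G039500 with a margin of 1.001, at 15.2 FPKM in B and 31.5 in MS, Sobic.004G066500 with 1.01 and Sobic.001G496300 with 1.03. Just outside were Sobic.003G241500 with a margin of 0.99987, at 1001 FPKM in SD and 2003 in MS, Sobic.007G067800 with 0.99 and Sobic.010G011200 with 0.99. The first of those outside was more abundant at MS than any member.

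**Figure D3:**
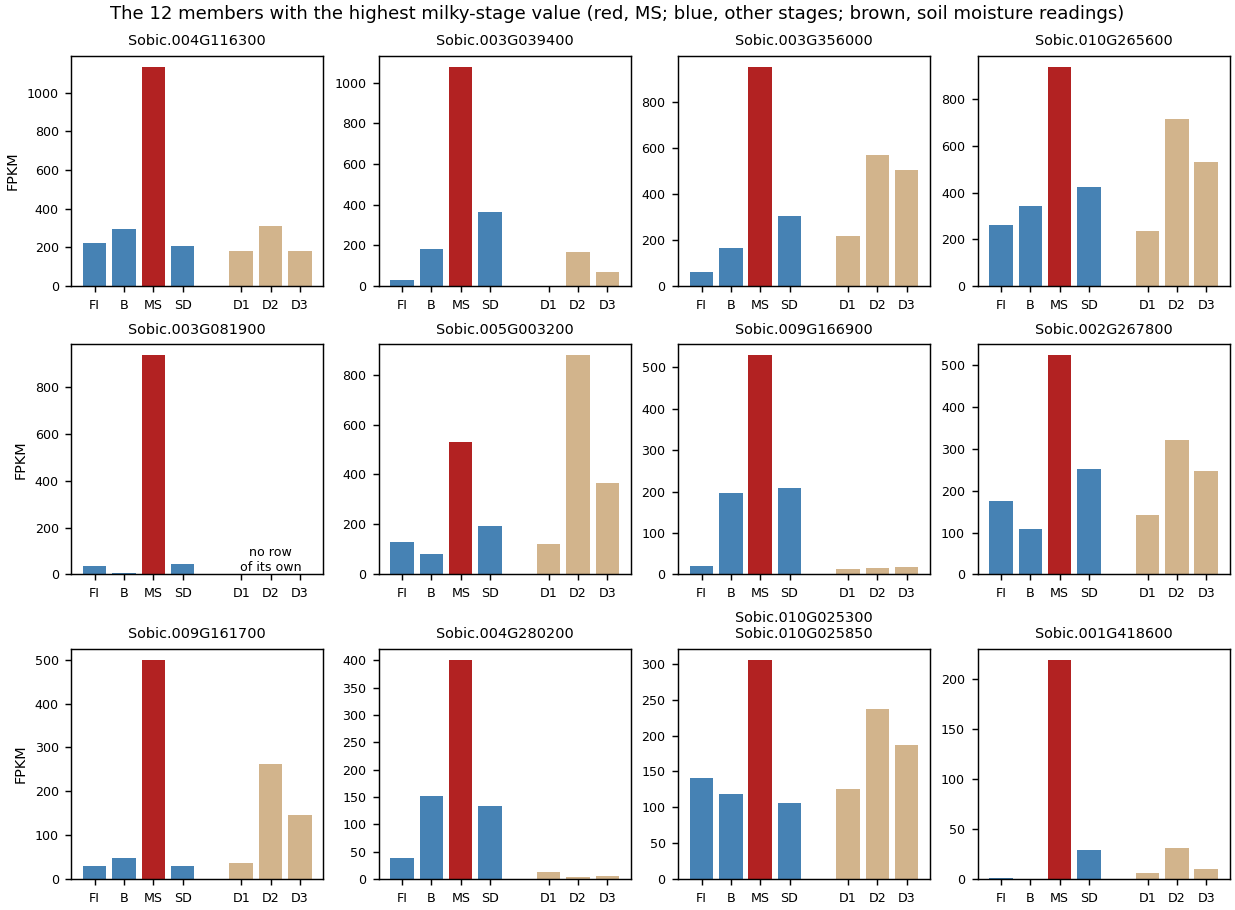
Bars give the deposited FPKM value of the 12 members with the highest milky-stage level in each group, with a separate FPKM axis per gene that starts at 0. MS (red) is the highest stage in each panel, and in Sobic.005G003200 the D2 value of 877 FPKM exceeds its MS value of 530.25 FPKM. Stages and readings come from tables taken as normalised separately and from plants that also differed in stage, watering and pot or soil bed.

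The published sucrose synthase, Sobic.001G378300 (chromosome 1, 66642502 to 66650446), was a member with a margin of 1.65. Sucrose synthase splits sucrose reversibly into fructose and a nucleotide sugar used for starch and cell walls. It was at 16.0, 20.7, 71.1 and 21.9 FPKM in FI, B, MS and SD, so the 3 other stages were nearly level. In the pots it was at 60.9 FPKM in D1, 109 in D2 and 87.0 in D3, within 2-fold over the readings. The other 2 listed sucrose synthases were not members and had their highest stage value at FI. Sobic.010G072300 was at 1242, 818, 371 and 441 FPKM in FI, B, MS and SD, and Sobic.001G344500 at 388, 110, 74.5 and 119 FPKM. Of 12 loci with published names in stem biology that were looked up, this sucrose synthase was the 1 member.

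Members were found on all 10 chromosomes, from 5 on chromosome 7 to 14 on chromosome 1. Per measured gene their share ran from 0.415% on chromosome 7 to 0.852% on chromosome 8. On 2 occasions a member was the direct neighbour of another, which puts 4 members (4.12%) beside a member, against 121 of all 18338 measured genes (0.66%). The pair on chromosome 7 was Sobic.007G143100 (57301946 to 57303138) and Sobic.007G143200 (57307496 to 57308484). The first was at 30.0, 34.7, 213 and 96.5 FPKM in FI, B, MS and SD, and the second at 8.45, 13.7, 59.2 and 23.6 FPKM. Both genes had the same order of stages at different levels.

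The other pair, on chromosome 3, was Sobic.003G081900 and the row of Sobic.003G082000 and Sobic.003G082200 (7041778 to 7058676), which was at 0.188, 0.0239, 3.92 and 0.371 FPKM. The locus of this second row is shared with Sobic.003G082100, so the split of reads between them is uncertain. Sobic.003G082100 was no member, at 0.0951, 0.0201, 0.0251 and 0.543 FPKM in FI, B, MS and SD, highest at SD. Also no member was Sobic.003G082300 (7064998 to 7066317), at 97.2, 272, 309 and 192 FPKM in FI, B, MS and SD. The drought table joins Sobic.003G081900, Sobic.003G082100 and Sobic.003G082300 in 1 row (7023223 to 7066321), at 152 FPKM in D1, 773 in D2 and 469.6 in D3. D2 was 5.08-fold above D1, but the share of Sobic.003G081900 in this row cannot be read from it.

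In the drought table, 93 of the 97 members had a row under the same name. Coordinates were identical in both tables for 70 of the 93, and the other loci differed in their limits. Of the 93, 79 reached 1 FPKM in at least 1 reading and 14 stayed below it in all 3. The rule did not use these columns. At the second reading the members stood mostly higher than at the first. In D2, 28 of the 79 (35.4%) were at least 2-fold higher than in D1 on the log2(FPKM + 1) scale, against 4.57% of all 16801 genes measured there. Conversely, 2 members (2.53%) were at least 2-fold lower, against 6.25% of all genes. Counting any difference, 64 of 79 (81.0%) were higher in D2 than in D1, against 50.3% of all genes. The count was 28 also among the 93 matched members. This holds by construction, since a gene under 1 FPKM in all readings cannot reach a change of 1 on this scale. Over those 93, the median difference of D2 minus D1 was 0.43 on the log2 scale, and it was 0.00 over all genes named once in the table. The second set includes genes under 1 FPKM in all readings. Over measured genes alone, the median was 0.67 for the 79 members and 0.00345 for all 16801 genes.

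Part of this difference was no longer seen at the driest reading. From D2 to D3, 9 members (11.4%) were at least 2-fold lower in D3, against 0.905% of all genes, and 4 (5.06%) were at least 2-fold higher, against 3.92%. Higher by any amount in D3 than in D2 were 29 of 79 (36.7%), against 49.7% of all genes. All 9 lower genes belonged to the 28 that were higher in D2 than in D1. They were also the 9 members (11.4%) with D2 at least 2-fold above both other readings, against 0.601% of all genes. Of the 28, 26 lay below their D2 value in D3, 15 were still at least 2-fold above D1, and all 28 remained above D1 by some amount. The 28 were picked by a D2 value that was high against D1. This pick by itself favours a D3 value below D2 and above D1. The matching shares among all genes that were higher in D2 than in D1 were not taken.

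Between the driest and the wettest reading, 20 members (25.3%) were at least 2-fold higher in D3 than in D1, against 5.12% of all genes, and 2 (2.53%) were lower, against 3.49%. By any amount, 58 of 79 (73.4%) were higher in D3 than in D1, against 51.2% of all genes. Altogether 36 members (45.6%) differed at least 2-fold among the 3 readings, against 15.3% of all genes, and 43 lay within 2-fold. The highest reading was D2 for 45 members (57.0%), against 34.8% of all genes. The lowest was D1 for 54 members (68.4%), against 39.9%. The comparisons D2 against D1, D3 against D2 and D3 against D1 share columns and are not independent of each other.

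**Figure D4:**
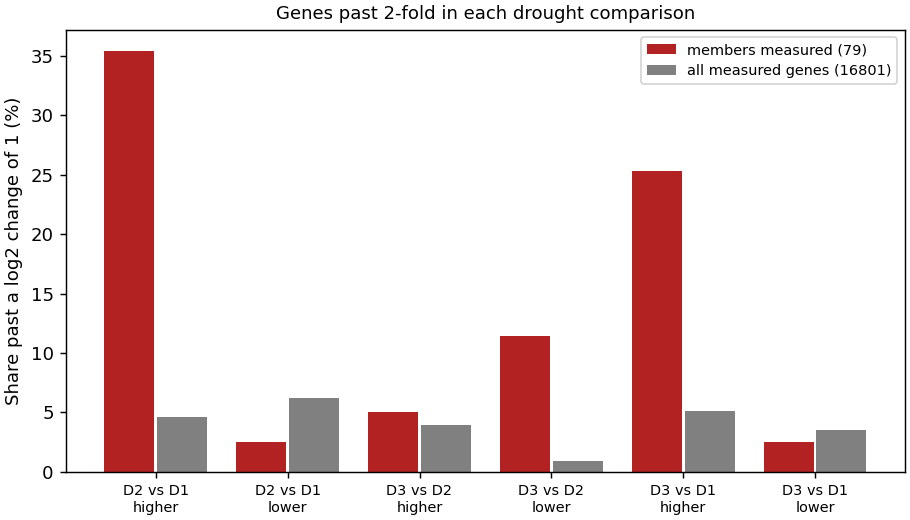
Bars give the share of genes at least 2-fold higher or lower on the log2(FPKM + 1) scale, for the 79 members measured in drought (red, left) and all 16801 measured genes (grey, right), in each pair of readings. The widest gap is in genes higher in D2 than in D1, at 35.4% of members and 4.57% of all genes.

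Abundant genes pass a 2-fold limit on this scale more readily than rare ones, so the counts were also taken for genes averaging 5 FPKM or more over the 3 readings. There, 24 of 59 members (40.7%) were at least 2-fold higher in D2 than in D1, against 5.06% of 11811 genes. In D3 against D1, 18 of 59 (30.5%) were higher, against 4.78%. In D3 against D2, 9 of 59 (15.3%) were lower, against 0.83%. Among the 21 measured members with at least 100 FPKM at MS, 13 (61.9%) were at least 2-fold higher in D2 than in D1, against 9.5% of the 1316 measured genes with that level at MS.

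Sobic.003G039400, the second most abundant member, had the widest drought difference, at 2.66 FPKM in D1, 167 in D2 and 67.7 in D3. D2 was 62.8-fold above D1, and D3 was 25.5-fold above it. Sobic.009G245000 (chromosome 9, 58073717 to 58079719), at 215 FPKM in MS, was at 1.55 FPKM in D1, 54.2 in D2 and 8.57 in D3. It was 34.9-fold higher in D2 than in D1 and then 6.32-fold higher in D2 than in D3, so its middle reading stood far above both others. Sobic.004G314400 was at 4.99 FPKM in D1, 90.7 in D2 and 26.1 in D3, and its D2 level was near its MS level of 89.7 FPKM. Levels set across the stages and the readings come from 2 tables taken as normalised separately and from plants that also differed in pot or soil bed, stage and watering, which cannot be told apart.

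Several abundant members followed the same course with smaller folds. Sobic.009G161700 was at 36.9 FPKM in D1, 263 in D2 and 146 in D3, a 7.13-fold difference between D2 and D1. Sobic.005G003200 was at 122, 877 and 367 FPKM in D1, D2 and D3, a 7.18-fold difference between D2 and D1. For both, D1 was the lowest and D2 the highest reading. Sobic.003G356000 was at 218, 569 and 501 FPKM and Sobic.010G265600 at 237 (D1), 716 (D2) and 531 FPKM (D3). In these 2 genes D2 was at most 1.35-fold above D3. Sobic.002G267800, at 143, 321 and 247 FPKM in D1, D2 and D3, also lay within this pattern. Other abundant members did not. Sobic.004G116300, the most abundant at MS, was at 183, 312 and 181 FPKM in D1, D2 and D3, within 2-fold over the readings. Sobic.009G166900 was at 13.5, 14.6 and 18.7 FPKM, also within 2-fold and highest in D3.

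Other members stood out by how far D3 lay below D2. Sobic.010G150800 (chromosome 10, 43592743 to 43593468) was at 2.91 FPKM in D1, 30.2 in D2 and 7.20 in D3. Sobic.007G168100 (chromosome 7, 60311121 to 60312805) was at 1.78, 12.1 and 2.47 FPKM in D1, D2 and D3. Sobic.001G418600 was at 5.67, 31.4 and 10.02 FPKM. In all 3 the D3 value was at most 2.47-fold above D1. The row of Sobic.008G029300 and Sobic.008G029400 (chromosome 8, 2620462 to 2632242) differed from them, at 13.1, 96.7 and 81.3 FPKM in D1, D2 and D3, and kept most of its D2 level.

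**Figure D5:**
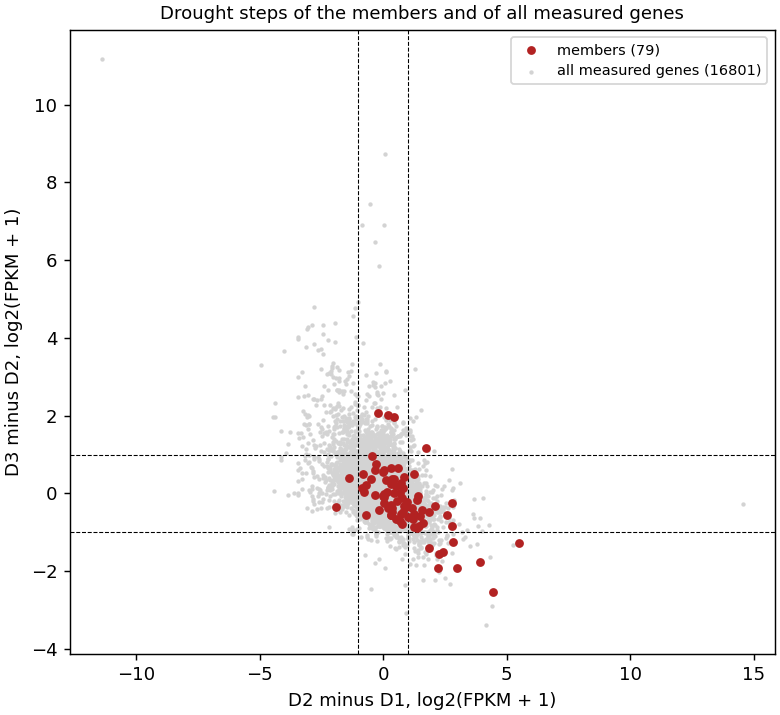
Each point is a gene measured in the drought table, with D2 minus D1 on the x axis and D3 minus D2 on the y axis, both in log2(FPKM + 1); dashed lines mark a change of 1. Members (red, 79) reach from the centre towards the lower right, with 28 beyond 1 on the x axis and 9 below -1 on the y axis.

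The 4 members at least 2-fold higher in D3 than in D2 took another course. Sobic.002G202700 (chromosome 2, 59258883 to 59260622) was at 6.27 FPKM in D1, 5.39 in D2 and 25.8 in D3. Sobic.010G063100 (chromosome 10, 4986051 to 4990261) was at 4.29, 5.00 and 23.2 FPKM in D1, D2 and D3. Sobic.004G171000 (chromosome 4, 52358174 to 52358919) was at 3.81, 5.62 and 24.7 FPKM. Between the first 2 readings these 3 were at most 1.47-fold higher in D2. The fourth, Sobic.001G412700, was at 1.57, 7.67 and 18.5 FPKM and was higher at each reading.

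Relative to D1, 2 of 79 members (2.53%) were at least 2-fold lower in D2, against 6.25% of all genes. In D3 it was also 2 of 79 (2.53%), near the 3.49% of all genes. Sobic.004G280200 was 3.01-fold lower in D2 than in D1, at 11.8 FPKM in D1, 3.92 in D2 and 5.49 in D3, all far below its 152 FPKM at booting in the soil bed. The second member at least 2-fold lower in D2, outside the naming rule and picked from its values, was Sobic.003G050800 (chromosome 3, 4601659 to 4610988, shared locus), at 5.00, 0.625 and 0.272 FPKM in D1, D2 and D3. It was lower in D3 than in D1 as well, as was Sobic.004G095500, at 3.58, 1.82 and 0.924 FPKM. Sobic.002G292100 (chromosome 2, 67011077 to 67015058), at 12.5, 6.52 and 7.32 FPKM, and Sobic.004G118700 (chromosome 4, 12492747 to 12496390), at 60.3, 35.1 and 35.9 FPKM, lay within 2-fold on the log2(FPKM + 1) scale.

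The same rule turned to the other stages gave 1668 genes for FI, 490 for B and 440 for SD. In D2 against D1, at least 2-fold higher were 62 of 967 measured genes peaking at FI (6.41%), 59 of 396 peaking at B (14.9%) and 11 of 316 peaking at SD (3.48%), beside the 35.4% of members. At least 2-fold lower in D2 were 12.5% of the FI genes, 11.6% of the B genes and 34.2% of the SD genes, beside 2.53% of members. In D3 against D2 the SD genes were higher in 117 of 316 cases (37.0%) and lower in 1.27%, whereas members were higher in 5.06% and lower in 11.4%. Genes peaking at MS and at SD thus stood on opposite sides in both drought steps, which share the D2 column. In D3 against D1 they stood on the same side. There 19.6% of the SD genes were higher and 10.4% lower, beside 25.3% and 2.53% of members and 5.12% and 3.49% of all genes. None of this was tested for want of replicates.

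Genes of the circadian clock set daily rhythms of many plant transcripts, and some of those looked up differed at least 2-fold between D1 and D2. LHY, a morning gene of the clock (Sobic.007G047400 in published work), was at 16.8, 180.1, 134 and 25.8 FPKM in FI, B, MS and SD. In the pots it was at 7.28 FPKM in D1, 40.1 in D2 and 26.0 in D3, 5.51-fold higher in D2 than in D1. TOC1, an evening gene (Sobic.004G216700), was at 14.4, 19.0, 13.9 and 43.2 FPKM in FI, B, MS and SD, and at 117, 51.6 and 74.1 FPKM in D1, D2 and D3. GI (Sobic.003G040900), a further clock gene, was at 115, 263, 233 and 209.7 FPKM in FI, B, MS and SD. In the pots GI was at 155, 209.5 and 176 FPKM in D1, D2 and D3, within 2-fold over the readings. LHY was lowest in D1 and highest in D2, as were 35 of the 79 measured members (44.3%) and 24.3% of all measured genes, and TOC1 was highest in D1 and lowest in D2. Clock genes were not the only loci looked up that differed. The cellulose synthase Sobic.001G224300 was at 1.74, 0.0922 and 0.868 FPKM in D1, D2 and D3. Sobic.003G296400, another, was at 1.74, 0.354 and 1.81 FPKM. The remaining listed cellulose synthase, Sobic.002G118700, was at 53.2, 91.8 and 27.6 FPKM. The labels give no time of day of harvest, and the part of the clock in the members' values was not tested.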

How the data were processed

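Middle internodes of 14 samples in 7 groups were grouped by the stage label. Values are FPKM per the file headers, and the authors' sheet holds a development table and a drought table with a single value for each gene in each group. The steps named in the submitters' processing notes are HISAT2 2.0.5, Bowtie2 2.2.9, Cuffdiff and cutadapt 1.8.1, with no role stated. The build, the read numbers and the way samples were merged into a group value are not given in the sources used here. Coordinates are the loci of the deposited development table, and for merged loci they cover more than 1 gene. Of 34755 development rows, 2003 without a name were left out. The drought table held 32726 rows, in which 20 names occurred more than once and were not matched.

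Differences were taken as log2(FPKM + 1) and counted at 1. A gene was measured at 1 FPKM in at least 1 column of a table. The planned fallback for 1 value per group was used, which gives no test. Members and lists were chosen with earlier results of these data known. Named are members with the 12 widest margins (MS of at least 5 FPKM), the 10 highest MS values, and the 3 largest increases and decreases per drought comparison (5 FPKM or more in the higher reading), those at the limit of the rule, runs of neighbours, and loci with published names. The 30 product lists planned for grouping genes could not be filled, since no table pairs identifiers with products, and the labelled tissue was not checked against markers. No sequences were used. Value columns not used numbered 0. The code was tested on simulated data. Software was numpy 2.4.6, pandas 2.3.3 and matplotlib 3.10.9 under Python 3.11.15.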

Additional observations from a re-analysis of the deposited data

How the results depend on the processing

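No paired analysis was possible because the deposited columns give 1 value per group and carry no replicate number, and for the same reason no replicate could be left out. Of 104 counts under other pseudocounts, filters, scalings and limits, 69 lay within 1.5 times the reported count. Those 69 include the drought counts taken without the filter at 1 FPKM, which equal the reported ones by construction. Under median ratio rescaling and quantile normalization every count of members was within 1.5 times. Of the 63 measured members with identical coordinates in both tables, 24 were higher and 2 lower in D2 than in D1. The shares of all measured genes were 4.57% and 6.25%. The number of members was 245 with a pseudocount of 0.1, which holds all 97, and 59 with a pseudocount of 5, all among the 97. It was 105 after median ratio rescaling and 111 after quantile normalization, with 97 and 95 of the members kept.

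At a log2 change of 2, 12 of 79 members were higher in D2 than in D1 (0.679% of all measured genes), 7 in D3 than in D1 (0.815%) and 2 in D3 than in D2 (0.875%), 1 was lower in D3 than in D2 (0.0655%), and 17 differed among the readings (2.92%). Of the 15 members with a margin of at least 2, 9 were measured in drought. Among these 9, those counts were 6, 4, 1, 2 and 7, against 4.57%, 5.12%, 3.92%, 0.905% and 15.3% of all genes at the reported limit. With a pseudocount of 0.1, 7 of 79 were higher in D3 than in D2 (6.26% of all genes) and 14 lower (1.82%). With members chosen again at 0.1, 9 of the 103 measured in drought were higher and 17 lower in D3 than in D2, 34 were higher in D3 than in D1 (7.69%) and 60 differed among the readings (22.1%). Chosen again at a pseudocount of 5, 13 of the 51 measured in drought were higher in D3 than in D1 (2.54%), 1 was higher in D3 than in D2 (1.78%) and 23 differed among the readings (7.17%).

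The counts of lower members, each out of the same numbers of members measured in drought, were small, with 59 such members at a mean of 5 FPKM and 67 on loci of their own. In D2 against D1, where 6.25% of all genes were lower at the reported limit, 1.23% at a log2 change of 2 and 9.76% and 2.62% at pseudocounts of 0.1 and 5, they were 0 at a log2 change of 2, with a margin of 2 and with a pseudocount of 5 (members chosen again or not), 1 with a mean of 5 FPKM and 1 on loci of their own, and 7 with members chosen again at a pseudocount of 0.1. In D3 against D1, where those shares were 3.49%, 0.548%, 5.79% and 1.36%, they were 0 with a mean of 5 FPKM, on loci of their own and with a pseudocount of 5 in both forms, 1 under the stricter change and 1 under the stricter margin, and 5 with members chosen again at 0.1. A higher pseudocount or stricter limit admits fewer genes by construction. With depth unknown, differences among members under about 5 FPKM are the least certain.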

Other observations

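Among the 2003 rows of the development table without a gene name, 1044 reached 1 FPKM in a stage and 14 met the rule for a milky-stage peak. Their MS values ran from 1.49 to 113 FPKM with a median of 4.39 FPKM. They could not be followed by name into the drought table. Of the 97 members, 14 share their locus with another row and 8 hold several gene models in 1 row, 19 in either way, and their values are less certain for that reason.

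Of the 18 pairs of consecutive members whose starts lay within 500000 bases of each other, 1 was formed by Sobic.004G115900 and Sobic.004G116300 on chromosome 4, with starts 63450 bases apart. Sobic.002G202700 and Sobic.002G202800 on chromosome 2 lay 16419 bases apart. Sobic.002G202700 was at 22.4, 10.2, 84.9 and 26.1 FPKM in FI, B, MS and SD, and Sobic.002G202800 at 0.265, 0.581, 2.72 and 0.296 FPKM. Both had their highest drought value in D3, at 25.8 and 1.66 FPKM. These pairs were picked from the list of distances. The 18 include both pairs of direct neighbours given above, and no matching count over all genes was taken.

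Sobic.002G141800 (chromosome 2, 23093097 to 23093995), picked from its values, was at 0.159, 0.203, 27.1 and 9.19 FPKM in FI, B, MS and SD, and at 27.4, 152 and 52.5 FPKM in D1, D2 and D3. It was thus nearly silent at booting in the soil bed and well above its milky-stage level at booting in the pots at D2. The 2 tables were taken as normalised separately.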
